A study of Rattus norvegicus with 10 samples.

Results

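Rab GTPases are the small G proteins that direct membrane traffic, and their transcripts were measured in the left hippocampus of male TgF-344AD rats with and without ibudilast. The members were all rows of the count table whose symbol is Rab followed by a number and, where there is one, a letter from a to d. This rule took 54 of 17168 rows. The gene Rab29 stands in the table under its older symbol Rab7l1 and is therefore not a member, and proteins that bind Rabs, such as the Rab11 family-interacting proteins, are not members either. Of the 54 genes, 51 passed the filter on low counts and were tested, beside 12355 genes in all.

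TgF-344AD rats are Fischer 344 rats that carry human transgenes with familial Alzheimer mutations, driven by the mouse prion promoter. All 10 rats carried them, and no wild-type rats were analysed here. The untreated group was 5 rats on plain rodent chow, and the ibudilast group was 5 rats whose chow held ibudilast, a drug that blocks phosphodiesterases. They ate it for 6 months, beginning when they were 5 months old. Tissue of both groups was taken at 11 months of age, and each rat gave 1 library. Only the ibudilast tissue was kept in RNAlater-ICE, per the series' design text, so drug and storage cannot be told apart in any value below.

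A Rab cycles between a GTP-bound form on a membrane and a GDP-bound form in the cytosol. Exchange factors (GEFs) load GTP, GTPase-activating proteins (GAPs) end the active state, and GDP dissociation inhibitors carry the inactive Rab through the cytosol. Each Rab marks certain compartments and recruits effectors there: motors, tethers and lipid kinases. In neurons Rabs serve the release of synaptic vesicles, the recycling of receptors at dendritic spines and the transport of endosomes along axons, and enlarged endosomes marked by Rab5 are a known early feature of Alzheimer's disease.

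Library totals ran from 14806807 to 18533520 counts. Some libraries stood apart. Levels are given as CPM, the read count scaled to the TMM-normalized library size. Choroid plexus markers summed to 7589 CPM in untreated replicate 2 and 7024 CPM in ibudilast replicate 1, against 20.7 to 339 CPM in the other libraries. Untreated replicate 3 had the highest sums of microglial and endothelial markers (674 and 545 CPM), and ibudilast replicate 4 the lowest sum of excitatory neuron markers (1181 CPM). Sums of 5 pan-neuronal markers were 4536 to 5794 CPM untreated and 2149 to 3126 CPM with ibudilast, with 4 of 5 markers lower and 0 higher. Sums of 12 oligodendrocyte markers were 7822 to 15319 CPM and 15982 to 19006 CPM, with 6 higher and 0 lower. Of 6 microglial markers 5 were lower and 0 higher (373 to 674 CPM, then 248 to 297 CPM), and of 6 endothelial markers 4 were lower and 0 higher (295 to 545 CPM, then 143 to 269 CPM). Of 6 astrocyte markers, whose sums were 4605 to 6373 CPM and 3757 to 5436 CPM, 4 were lower and 0 higher. Of 7 excitatory neuron markers 2 were lower and 0 higher (sums of 4602 to 6169 CPM, then 1181 to 5217 CPM). Of 6 interneuron markers 2 were lower and 1 higher (302 to 539 CPM, then 311 to 505 CPM), and none of the 5 choroid plexus markers passed. No marker had a group mean of 0. Over all tested genes 22.8% were lower and 24.3% higher, and these marker counts are to be read beside those shares. Several of these lists moved with the groups, and their part in the Rab results was not tested. In bulk tissue, fewer cells of a type and less RNA per cell cannot be told apart.

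Upstream sequence was looked up for the members because ibudilast acts on cAMP, whose transcription factor CREB binds the cAMP response element. RefSeq promoters (build GRCr8, 250 bases before to 50 after each annotated start) were matched by symbol for 44 of the 54 members. Shown here, 5′ to 3′ along each gene, are the windows of Rab21, Rab7a and Rab6a, which were lower with ibudilast, and of Rab8a, which was higher. Each of these holds the half-site TGACG at least once, while the windows of the changed genes Rab27b, Rab14, Rab5a and Rab34 do not hold it. Capitals mark the half-site TGACG, on either strand, and the E-box CACGTG, which overlaps the half-site in Rab21.

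Rab21, chr7:52814894-52815193, minus strand: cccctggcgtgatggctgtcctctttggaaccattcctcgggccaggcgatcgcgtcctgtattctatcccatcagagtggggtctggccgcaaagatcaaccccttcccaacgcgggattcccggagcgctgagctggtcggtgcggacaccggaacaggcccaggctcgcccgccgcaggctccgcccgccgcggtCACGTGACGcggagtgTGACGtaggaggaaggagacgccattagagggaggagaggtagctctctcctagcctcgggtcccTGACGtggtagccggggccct

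Rab7a, chr4:122064136-122064435, minus strand: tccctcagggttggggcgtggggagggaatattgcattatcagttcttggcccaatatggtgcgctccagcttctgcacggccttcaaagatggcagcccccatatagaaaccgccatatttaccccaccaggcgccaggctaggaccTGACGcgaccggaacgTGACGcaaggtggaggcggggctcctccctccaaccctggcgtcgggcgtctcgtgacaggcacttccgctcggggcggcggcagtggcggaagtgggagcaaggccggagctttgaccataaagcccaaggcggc

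Rab6a, chr1:164369783-164370082, plus strand: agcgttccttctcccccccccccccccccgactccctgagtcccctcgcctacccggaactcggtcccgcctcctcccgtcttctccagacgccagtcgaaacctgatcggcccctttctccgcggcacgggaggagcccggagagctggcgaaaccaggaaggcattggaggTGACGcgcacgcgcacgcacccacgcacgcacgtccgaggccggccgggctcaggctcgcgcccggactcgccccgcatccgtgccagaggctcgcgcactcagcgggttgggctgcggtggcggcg

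Rab8a, chr16:17709363-17709662, minus strand: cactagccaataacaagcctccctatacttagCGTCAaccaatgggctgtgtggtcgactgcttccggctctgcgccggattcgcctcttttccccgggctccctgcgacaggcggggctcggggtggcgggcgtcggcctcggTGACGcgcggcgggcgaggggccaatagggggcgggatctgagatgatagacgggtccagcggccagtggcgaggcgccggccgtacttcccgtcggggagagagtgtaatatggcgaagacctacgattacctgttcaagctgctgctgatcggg

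Rab21 held 3 half-sites, beginning 48 and 36 bases before and 29 bases after its annotated start. Rab7a held 2, at 102 and 86 bases before the start. Rab8a also held 2, at 218 and 106 bases, the first of them on the opposite strand, and Rab6a held 1 at 77 bases. At least 1 half-site lay in 14 of the 44 Rab windows (31.8%), against 31.4% of the windows of all tested genes that were matched (9220) and 22% of all 27457 windows. The Rab windows include those of Rab17, Rab19 and Rab25, which were not tested, and those of Rab19 and Rab25 held half-sites. Among the Rab genes, 8 of 17 matched windows of lower genes, 1 of 2 of higher genes and 3 of 22 of genes that did not pass held one. Over all tested genes the shares were 33.8%, 32.6% and 29.8% in the same order. The whole palindrome TGACGTCA was found in 1 Rab window, that of Rab25, which was barely detected, and in 3.2% of windows of tested genes. An E-box lay in 4 Rab windows, those of Rab5a, Rab20, Rab21 and Rab31. That is 9.1% of the 44 windows, untested genes included, beside 9.1% over the tested genes. These are matches of letters and carry no test.

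With ibudilast, more Rab transcripts fell than rose. Of 51 tested Rab genes, 18 fell, 5 rose and 28 did not pass an adjusted p of 0.05 by edgeR's quasi-likelihood test. That is 23 of 51 (45.1%) changed, close to the 47.1% of all tested genes, but 35.3% were lower and 9.8% higher, where all tested genes gave 22.8% lower and 24.3% higher. The groups did not overlap for 20 of the 51 (39.2%), against 33.4% of all tested genes. The median log2 fold change of the Rab genes was −0.22, beside 0.02 over all tested genes, and ran from −1.20 to 0.95. Of the 26 more abundant Rab genes (mean of at least 48.1 CPM), 46.2% were lower and 11.5% higher, beside 31% and 22.9% of the 4245 tested genes at or above that level. Of the 25 less abundant Rab genes, 24% were lower and 8% higher, where 22.8% and 24.3% of all tested genes were. The tested genes below 48.1 CPM were not counted apart. With library size alone or upper-quartile factors in place of TMM factors, 17 Rab genes were lower and 8 higher, the added ones being Rab1b, Rab4a and Rab33a. When the 4 libraries that stood apart (numbers 2 and 3 of the untreated, 1 and 4 of the ibudilast rats) were left out, 22 Rab genes were lower and 9 higher. The counts over all tested genes rose as well in that fit, to 3374 lower and 3483 higher.

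**Figure D1:**
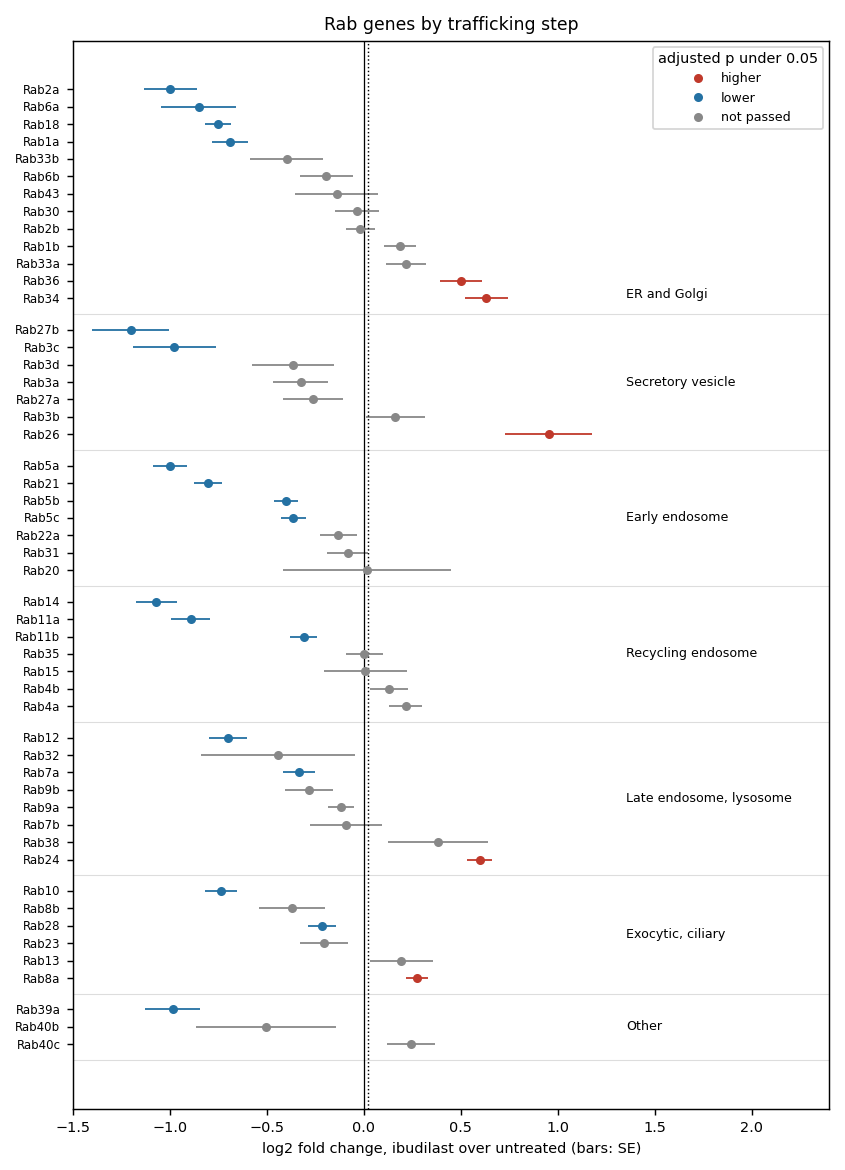
Log2 fold change of the 51 tested Rab genes (ibudilast over untreated, 5 rats each), grouped by the trafficking step they are best known for; bars are standard errors and the dotted line is the median of all tested genes, 0.02. Blue genes were lower (18), red genes higher (5) and grey genes did not pass (28).

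The Rab genes together made up a smaller part of the normalized reads. Their levels summed to 6247 ± 408 CPM untreated and to 5023 ± 581 CPM with ibudilast (SD, n = 5 each), from 5785 to 6620 and from 4271 to 5674 CPM, so that the groups did not overlap. As a share of the raw library, without TMM factors, it was 0.610 ± 0.0450% and 0.513 ± 0.0403%, and here untreated replicate 3, at 0.540%, lay below ibudilast replicates 3 and 5, at 0.550% and 0.557%. Abundant genes weigh most in such a sum. Mean CPM went from 728 to 403 for Rab6a, from 1141 to 998 for Rab6b and from 672 to 536 for Rab3a. The groups overlapped for each of these, and Rab6b and Rab3a did not pass.

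Rabs of the ER and Golgi split. Rab1a, Rab2a, Rab6a and Rab18 fell, Rab34 and Rab36 rose, and 7 of 13 did not pass. Of these 13 genes 46.2% changed (30.8% lower, 15.4% higher), beside 47.1% of all tested genes (22.8% lower, 24.3% higher). Rab2a, which acts between the ER and the Golgi, was at 131, 132, 79.0, 120.4 and 125 CPM in untreated replicates 1 to 5 and at 59.7, 60.6, 63.0, 48.9 and 61.2 CPM in the ibudilast replicates. Untreated replicate 3 was the lowest of its group and still above every ibudilast rat, and the fall of Rab2a was 1.0 ± 0.14 (SE) in log2 units, with an adjusted p of 0.000239. Rab1a, which admits ER-derived vesicles to the Golgi, was at 163, 156, 129, 173 and 156 CPM untreated and 91.3, 90.4, 105, 88.3 and 106 CPM with ibudilast. The groups were apart, and the gene fell by 0.69 ± 0.09 (adjusted p = 0.000200).

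Rab6a, which serves retrograde transport within the Golgi, was at 801, 665, 497, 835 and 844 CPM in untreated and 343, 407, 525, 280.0 and 461 CPM in ibudilast rats. Untreated replicate 3 fell below ibudilast replicate 3, so the groups overlapped. Rab6a fell by 0.85 ± 0.19 (adjusted p = 0.00459), and by 0.83 without the 4 libraries that stood apart. Its annotated span overlaps those of Plekhb1 and Mrpl48 in RefSeq GRCr8, both of which were higher (log2 fold changes 0.36 and 0.45), and the sources used here do not say whether strand was used in counting. In all, 16 of the 54 members overlap another annotated gene there, among them the changed genes Rab5a, Rab5b, Rab6a, Rab21 and Rab28. Reads of such a gene and its partner may not be separable. The counts of these changed genes were whole in all 10 libraries, and sharing of their reads was not tested. Rab18, a Rab of the ER and lipid droplets, went from 144 ± 7.68 to 85.6 ± 6.03 CPM, with no overlap.

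Rab34 and Rab36, close relatives that act at the Golgi and in the positioning of lysosomes, both rose. Rab34, also needed to build primary cilia, was at 17.5, 21.6, 22.4, 16.7 and 19.5 CPM untreated and at 30.7, 27.1, 29.3, 36.3 and 28.1 CPM with ibudilast (log2 fold change 0.63 ± 0.11, adjusted p = 0.000945). Rab36 was at 21.9, 19.6, 28.5, 25.2 and 20.5 CPM, then at 29.9, 34.2, 35.2, 30.8 and 33.3 CPM (0.50 ± 0.11, adjusted p = 0.00341). In both genes every ibudilast rat was above every untreated rat. The 7 genes of this group that did not pass ran from −0.40 (Rab33b) to 0.22 (Rab33a), with Rab1b, Rab2b, Rab6b, Rab30 and Rab43 between them. Rab19 was too low to test, at 0.0697 to 0.576 CPM.

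Rabs of secretory and synaptic vesicles included the largest fall and the largest rise of the family. Of 7 tested genes 42.9% changed (28.6% lower, 14.3% higher), beside 47.1% of all tested genes (22.8% lower, 24.3% higher). Rab27b, which docks secretory granules and is needed for exosome release, was at 5.47, 4.69, 5.37, 4.93 and 5.51 CPM in untreated and 2.42, 1.67, 2.16, 1.71 and 3.30 CPM in ibudilast rats. The groups did not overlap, and the log2 fold change of Rab27b was −1.20 ± 0.20, a 2.30-fold fall (adjusted p = 0.000733). Its lowest library held 28 counts. Rab26, which is tied to secretory granules and to the capture of synaptic vesicles by autophagy, was at 40.8, 26.4, 58.8, 34.5 and 37.2 CPM, then at 74.2, 81.4, 87.9, 47.0 and 91.6 CPM.

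Ibudilast replicate 4 was the one ibudilast library of Rab26 that lay below an untreated one. That library also had the lowest sum of excitatory neuron markers, and a link between these values was not tested. Rab26 rose by 0.95 ± 0.23 (1.93-fold, adjusted p = 0.00574), and by 1.21 without the 4 libraries that stood apart. Rab3a to Rab3d are the Rabs of synaptic vesicles and other regulated secretion, and among them Rab3c alone passed. It was at 28.5, 14.1, 27.8, 23.2 and 18.1 CPM untreated and 10.3, 12.1, 9.14, 15.4 and 9.61 CPM with ibudilast. Untreated replicate 2 lay below ibudilast replicate 4, and Rab3c fell by 0.98 ± 0.21 (adjusted p = 0.00365).

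Rab3a, the main Rab of synaptic vesicles in the brain, was at 801, 614, 557, 668 and 723 CPM, then at 401, 571, 633, 493 and 583 CPM. The groups overlapped, and its log2 fold change of −0.33 ± 0.14 did not pass (adjusted p = 0.0791), although it did by DESeq2, without untreated replicate 3 and without the 4 libraries that stood apart. Its annotated span overlaps that of Mpv17l2, which was higher (0.43). Rab3b was at 0.16, Rab3d at −0.37 and Rab27a at −0.26, and none of them passed.

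**Figure D2:**
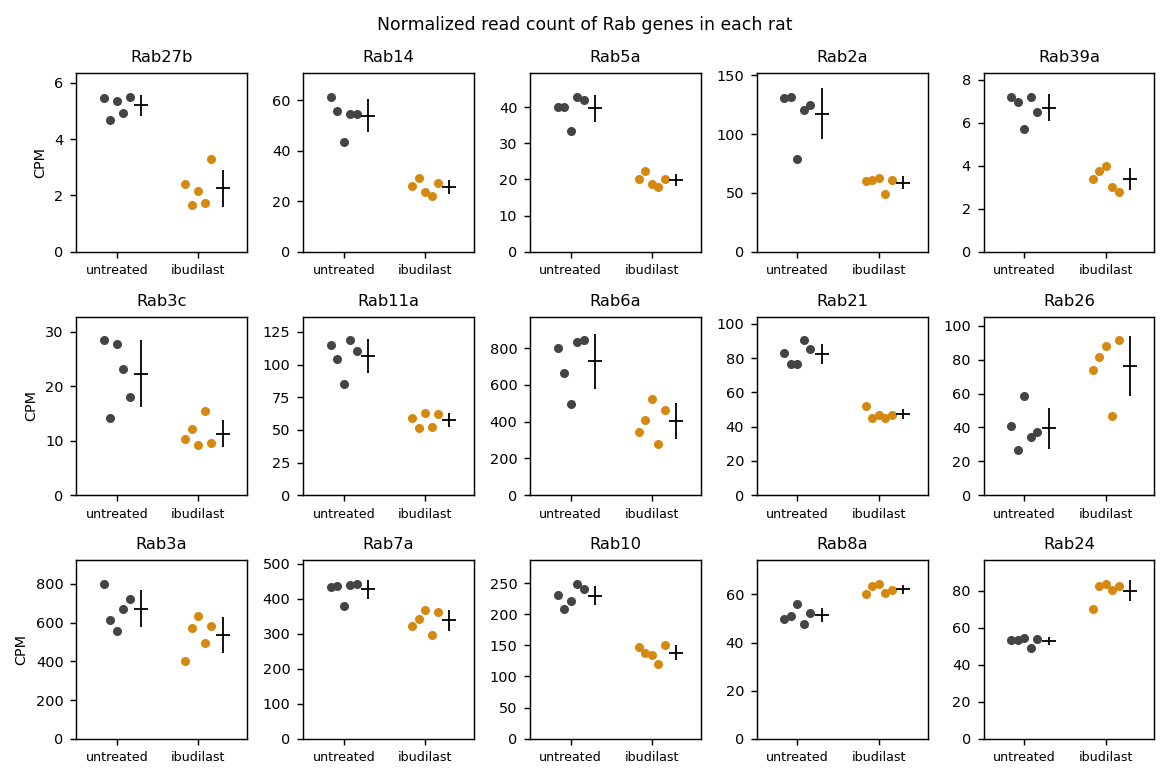
Normalized read count (CPM, linear axes from 0) of 15 Rab genes in each of the 10 rats; points are rats and the bars to their right are the mean and SD of each group of 5. Rab27b, Rab14, Rab5a, Rab11a, Rab21 and Rab10 are lower in every ibudilast rat than in any untreated rat, Rab8a and Rab24 are higher in every one, and Rab3c, Rab6a, Rab3a and Rab26 overlap.

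Early endosome Rabs moved down or did not pass. Rab5a, Rab5b, Rab5c and Rab21 fell, 0 rose, and Rab20, Rab22a and Rab31 did not pass. Of these 7 genes 57.1% changed, all lower, where 47.1% of all tested genes changed and 22.8% were lower. Rab5a, which drives fusion of endocytic vesicles with early endosomes, was at 40.1, 40.1, 33.4, 43.0 and 42.0 CPM in untreated and 20.2, 22.3, 18.7, 17.9 and 20.1 CPM in ibudilast rats. Every ibudilast rat was below every untreated rat (log2 fold change −1.0 ± 0.09, adjusted p = 2.60e-05). Its annotated span overlaps that of Pp2d1, which did not pass. Its paralogue Rab5b was at 328, 308, 345, 330.2 and 327 CPM, then at 243, 250.1, 253, 235 and 258 CPM (−0.40 ± 0.06, adjusted p = 0.000491). Rab5c was at 215, 208, 229, 223 and 224 CPM, then at 173, 168, 178, 154 and 180.0 CPM (−0.36 ± 0.06, adjusted p = 0.00111). Neither overlapped between the groups.

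Rab21, an endosomal Rab that carries integrins, had the smallest adjusted p of the family (2.55e-05), and its span overlaps another annotated locus. It was at 82.8, 76.8, 76.4, 90.5 and 85.2 CPM untreated and 52.1, 45.2, 46.6, 44.8 and 47.0 CPM with ibudilast, and fell by 0.80 ± 0.07 on the log2 scale. Rab31 was at 0.94 of its untreated level (log2 fold change −0.08, adjusted p = 0.551), with untreated replicate 3 the highest at 171 CPM. Rab17 had 0 counts in all 10 libraries, where 3 counts, the most a count of 0 allows, would be 0.158 to 0.209 CPM in a library.

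Among 7 tested recycling Rabs, Rab11a, Rab11b and Rab14 fell and 0 rose. That is 42.9% changed, beside 47.1% of all tested genes, and the median log2 fold change of the 7 was 0.002. Rab11a, the marker of the recycling endosome, was at 115, 104, 85.0, 119 and 110.0 CPM in untreated and 58.8, 51.7, 62.7, 51.9 and 62.0 CPM in ibudilast rats, without overlap (−0.89 ± 0.10, adjusted p = 8.19e-05). Rab14, which works between the trans-Golgi network and endosomes, was at 61.5, 55.8, 43.3, 54.4 and 54.4 CPM, then at 26.2, 29.3, 23.5, 22.2 and 27.1 CPM. It fell by 1.07 ± 0.11 (adjusted p = 4.11e-05), the second largest fall of the family. The fast-recycling Rabs did not pass: Rab4a was at 0.22 (adjusted p = 0.0579), Rab4b at 0.13 and Rab35 at 0.00. Rab15 was at 0.01 over all rats, with 119.8 CPM in ibudilast replicate 4 and 219 to 313 CPM in every other library. Rab25 was at 0 to 0.177 CPM and was not tested.

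Late endosomal and lysosomal Rabs went both ways. Of 8 tested genes 37.5% changed (25% lower, 12.5% higher), beside 47.1% of all tested genes (22.8% lower, 24.3% higher). Rab7a, the Rab of late endosomes and of their fusion with lysosomes, was at 434, 437, 379.6, 438 and 443 CPM in untreated and 322, 342, 369, 296 and 362 CPM in ibudilast rats. Untreated replicate 3 came closest to the ibudilast rats without meeting them, and the fall of Rab7a was 0.34 ± 0.08 in log2 units (adjusted p = 0.00770). Rab12, a substrate of the Parkinson kinase LRRK2, fell by 0.70 ± 0.10 (adjusted p = 0.000294), from 29.6 ± 2.69 to 18.2 ± 2.12 CPM.

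Rab24, which is linked to autophagy, was at 53.6, 53.3, 54.6, 48.8 and 53.8 CPM untreated and at 69.9, 82.7, 83.8, 80.4 and 82.4 CPM with ibudilast. All ibudilast rats were above all untreated rats, and it rose by 0.60 ± 0.07 (1.51-fold, adjusted p = 7.71e-05). Rab7b, Rab9a, Rab9b, Rab32 and Rab38 did not pass. Rab32 and Rab38, known from melanosomes and other lysosome-related organelles, were low, at 0.349 to 2.31 and 1.19 to 2.72 CPM. Rab9a, a Rab of transport from late endosomes to the trans-Golgi network, had counts that were not whole in all 10 libraries, and its span overlaps that of Trappc2, which fell by 0.72, so its log2 fold change of −0.12 is uncertain.

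Rabs of exocytosis and cilia also split. Of 6 tested genes 50% changed (33.3% lower, 16.7% higher), beside 47.1% of all tested genes (22.8% lower, 24.3% higher). Rab10, which serves exocytosis and membrane delivery in axons, was at 231, 209, 221, 249 and 240.4 CPM in untreated and 147, 137, 135, 120.0 and 151 CPM in ibudilast rats, without overlap (−0.74 ± 0.08, adjusted p = 6.88e-05). Rab8a, its close relative in exocytosis and ciliary traffic, was at 49.9, 51.2, 55.8, 47.7 and 52.3 CPM, then at 60.3, 63.5, 64.5, 60.7 and 61.8 CPM. It rose by 0.27 ± 0.06 (1.21-fold, adjusted p = 0.00308), so that every ibudilast rat was above every untreated rat while for Rab10 every one was below. Rab28, a Rab of cilia, had a log2 fold change of −0.22 ± 0.07 (adjusted p = 0.0308), which no longer passed in 7 of 21 alternatives. Rab8b was at −0.37, Rab13 at 0.19 and Rab23 at −0.21, and none passed.

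Of the remaining members, Rab39a was at 7.21, 6.95, 5.68, 7.18 and 6.48 CPM in untreated and 3.40, 3.75, 3.98, 3.01 and 2.78 CPM in ibudilast rats. The groups did not overlap, and it fell by 0.99 ± 0.14 (adjusted p = 0.000333). Rab40b, one of the Rabs that also carry a SOCS box and join ubiquitin ligases, ranged from 31.9 to 79.3 CPM and from 14.4 to 69.0 CPM and did not pass (−0.51 ± 0.36). Rab40c was at 0.24 and did not pass.

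The ratio of close paralogues changed in 10 of 20 pairs and did not pass in the other 10. To compare them, the log2 ratio of their CPM (with a prior count of 2) was taken within each rat, where the library scaling nearly cancels, and its change was tested by an exact permutation test over the rats, two-sided. All 20 pairs of tested members with the same number were compared, with p-values adjusted over these 20 pairs. The pairs of Rab3 and those of Rab5 share members. No pairs of other genes were compared, so the share of changed ratios over all genes is not known. Of all tested genes, taken singly, 47.1% changed. The smallest p that 5 against 5 rats allow is 0.00794. In 8 of the 10 pairs that passed the groups did not overlap (exact permutation p = 0.00794, adjusted p = 0.0198). These 10 differences kept their sign, from −1.08 to 1.51 and with no test, when the 4 libraries that stood apart were left out. Gene length cancels in these changes, and the levels of 2 paralogues are not compared.

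Rab1a fell relative to Rab1b: the log2 ratio went from −0.19 ± 0.21 to −1.06 ± 0.04 (SD, n = 5), a difference of −0.87 (exact permutation test, adjusted p = 0.0198). Rab1b itself was at 183, 168, 181, 162 and 187 CPM untreated and 191, 192, 224, 176 and 219.7 CPM with ibudilast, and did not pass (0.19 ± 0.08, adjusted p = 0.0912). Rab2a fell relative to Rab2b by 0.96 on the log2 scale, while Rab2b, at 27.8, 27.6, 29.3, 24.5 and 30.0 CPM untreated and 24.8, 27.9, 27.8, 27.1 and 29.9 CPM with ibudilast, had a log2 fold change of −0.02 ± 0.08. Rab6a fell relative to Rab6b by 0.65, although the ranges nearly met (lowest untreated ratio −1.191, highest ibudilast ratio −1.195). Rab6b, a brain-enriched form, was at 1224, 973, 1134, 1189 and 1186 CPM untreated and 855, 1104, 1203, 761 and 1066 CPM with ibudilast. Its groups overlapped and it did not pass (−0.19 ± 0.14).

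In the Rab5 and Rab11 pairs every member fell, but not equally. Rab5a fell relative to Rab5b by 0.59 and relative to Rab5c by 0.63, while the ratio of Rab5b to Rab5c went from 0.58 ± 0.02 to 0.54 ± 0.05, a difference of −0.04 (exact permutation test, adjusted p = 0.258). Rab11a fell relative to Rab11b by 0.57. Rab11b was at 252.4, 234, 231, 224 and 256 CPM in untreated and at 172, 199, 202, 192 and 201 CPM in ibudilast rats (−0.31 ± 0.07, adjusted p = 0.00464 by edgeR).

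Among secretory Rabs, Rab3b rose relative to Rab3c by 1.13, the largest change of a ratio among the 20 pairs. Rab3b was at 31.3, 31.4, 43.5, 33.8 and 24.0 CPM untreated and 29.0, 41.5, 35.9, 41.2 and 35.8 CPM with ibudilast, and its groups overlapped. The other 5 Rab3 pairs had differences from −0.52 to 0.62 and did not pass. Rab27a rose relative to Rab27b by 0.92. Rab27a was at 14.79, 14.5, 15.5, 13.3 and 11.7 CPM, then at 10.5, 9.17, 11.3, 16.4 and 10.8 CPM, with ibudilast replicate 4 the highest of all, and its counts were not whole in 6 libraries, as happens where reads are shared between features.

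Rab8a to Rab8b (0.63) and Rab33a to Rab33b (0.59) passed with overlapping groups at an adjusted p = 0.0476 by the exact permutation test. Both calls were lost without any one of untreated replicates 1, 2, 4 and 5 or ibudilast replicates 2, 4 and 5 (adjusted p up to 0.0705 and 0.0866). Rab8b was at 10.8, 12.9, 7.80, 11.1 and 13.6 CPM untreated and 9.90, 8.04, 10.5, 6.85 and 8.22 CPM with ibudilast. Rab33b, a Golgi Rab with a part in autophagy, was at 40.3, 38.7, 21.0, 35.7 and 41.5 CPM, then at 25.2, 26.8, 34.2, 20.4 and 28.0 CPM. In both genes untreated replicate 3 lay within the ibudilast range. Rab33a was at 27.5, 21.4, 21.6, 23.0 and 26.0 CPM, then at 23.6, 28.2, 29.4, 25.8 and 31.9 CPM, with counts that were not whole in all 10 libraries. Pairs of Rab4, Rab7, Rab9 and Rab40 did not pass, with differences of 0.08, −0.27, 0.16 and −0.84.

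**Figure D3:**
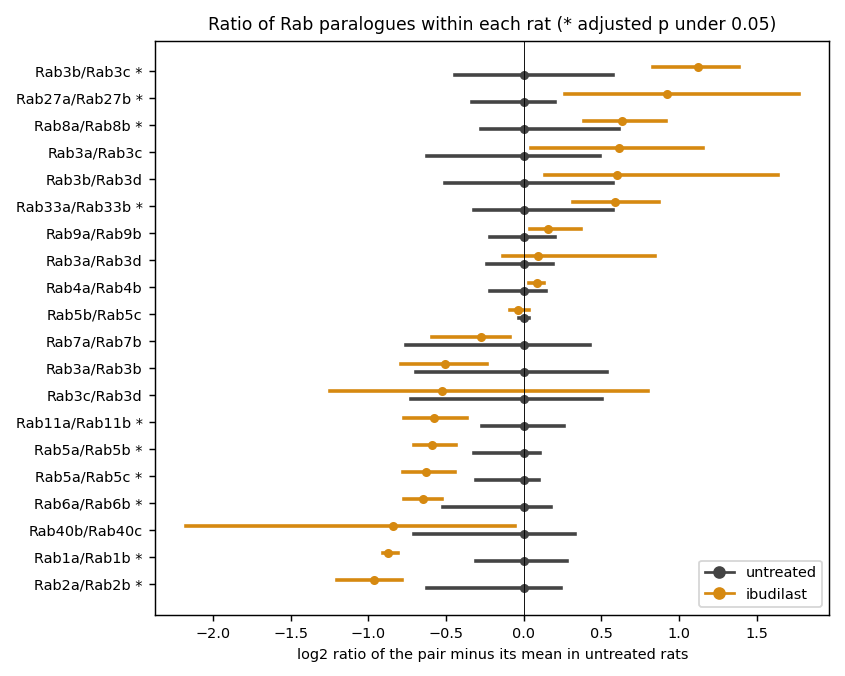
Log2 ratio of the CPM of paralogous Rab genes within each rat, centred on the mean of the untreated rats; points are group means and lines run from the lowest to the highest of 5 rats. In the pairs Rab1, Rab2, Rab6 and Rab11 and in both pairs with Rab5a, the a form is lower relative to its paralogue in every ibudilast rat than in any untreated rat. The a form is higher relative to the b form in Rab27, without overlap, and in Rab8 and Rab33, where the groups overlap.

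The proteins that run the Rab cycle were read from 4 lists of regulators and effectors. Of 8 genes for GDP dissociation inhibitors, escort proteins and prenylation, 1 was higher, 2 lower and 5 did not pass (median log2 fold change −0.11). That is 37.5% changed, beside 47.1% of all tested genes. Chm, the escort protein that presents new Rabs for prenylation, fell from 20.01 ± 3.68 to 10.4 ± 1.57 CPM (−0.95 ± 0.15, adjusted p = 0.000663). Rabggta, a subunit of the enzyme that attaches the lipid anchor, rose by 0.34 ± 0.07, and Rabac1 did not pass (0.15, adjusted p = 0.0763).

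Of 30 tested exchange factor genes, 9 were higher, 6 lower and 15 did not pass (median 0.03). The share changed, 50%, was near the 47.1% of all tested genes. Hps4, which with Hps1 activates Rab32 and Rab38, rose from 28.4 ± 2.93 to 68.7 ± 5.26 CPM (1.27 ± 0.09 on the log2 scale). St5, a protein with a DENN domain, rose from 49.4 ± 7.51 to 130.5 ± 20.7 CPM, Dennd6b from 23.5 ± 5.13 to 50.1 ± 5.73 CPM, and Ccz1 from 35.1 ± 3.40 to 52.4 ± 3.78 CPM. Ccz1 acts with Mon1a or Mon1b on Rab7. Hps1, Mon1a, Mon1b and Madd were looked up for their roles after their values had been seen: Hps1 rose by 1.02, Mon1a rose by 0.46, Mon1b did not pass (−0.02), and Madd, an exchange factor of Rab3, fell by 0.60. Beside the rise of Hps1 and Hps4, Rab32 and Rab38 did not pass, and beside Ccz1, Mon1a and Mon1b, Rab7a fell.

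Of 23 tested GAP genes, 4 were higher, 6 lower and 13 did not pass (median −0.02), and the share changed, 43.5%, was likewise near that of all tested genes. Rabgap1 fell from 125 ± 8.92 to 85.1 ± 7.76 CPM and Tbc1d24, a TBC-domain gene mutated in epilepsy, from 47.0 ± 6.17 to 26.8 ± 3.99 CPM. Tbc1d17 and Tbc1d25 rose by 0.47 and 0.61 on the log2 scale. Among 56 tested effector genes, 23 were lower, 9 higher and 24 did not pass (57.1% changed, 41.1% lower and 16.1% higher, median −0.14), against 47.1%, 22.8% and 24.3% of all tested genes. Inpp5b, a lipid phosphatase that binds several Rabs, and Kif20a, a kinesin that binds Rab6, rose by 0.69 ± 0.06 and 1.36 ± 0.13. Gcc2, a golgin of the trans-Golgi network, and Myo5a, the myosin that carries vesicles marked by Rab27a, fell by 0.71 ± 0.08 and 0.96 ± 0.15.

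Effectors of Rab3 and Rab5 on the effector list were looked up by role after their values had been seen. The Rab3 effectors named here that passed all fell, and the Rab5 effectors went both ways. Of the whole effector list 41.1% were lower and 16.1% higher. Of the Rab3 effectors, Rims1 and Rims2, scaffolds of the presynaptic active zone, and Rph3a, which binds synaptic vesicles, fell by 1.48, 0.84 and 0.66 on the log2 scale. Rims3 (0.11), Rims4 (−0.45), Rph3al (0.02), Doc2a (−0.12) and Doc2b (−0.21) did not pass, nor did Rab3a. Of the Rab5 effectors, Eea1, Rabep1 and Zfyve20, which act in the tethering and fusion of early endosomes, fell by 0.64, 0.29 and 0.16, and the lipid kinase subunits Pik3c3 and Pik3r4 fell by 0.34 and 0.54. Rabep2, the paralogue of Rabep1, rose by 0.59, and Appl2 (−0.05) and Ankfy1 (0.11) did not pass, beside falls of 1.0 for Rab5a, 0.40 for Rab5b and 0.36 for Rab5c. Lrrk2, the kinase of several Rabs, fell by 0.59 ± 0.14, and Lrrk1 did not pass (−0.05).

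**Figure D4:**
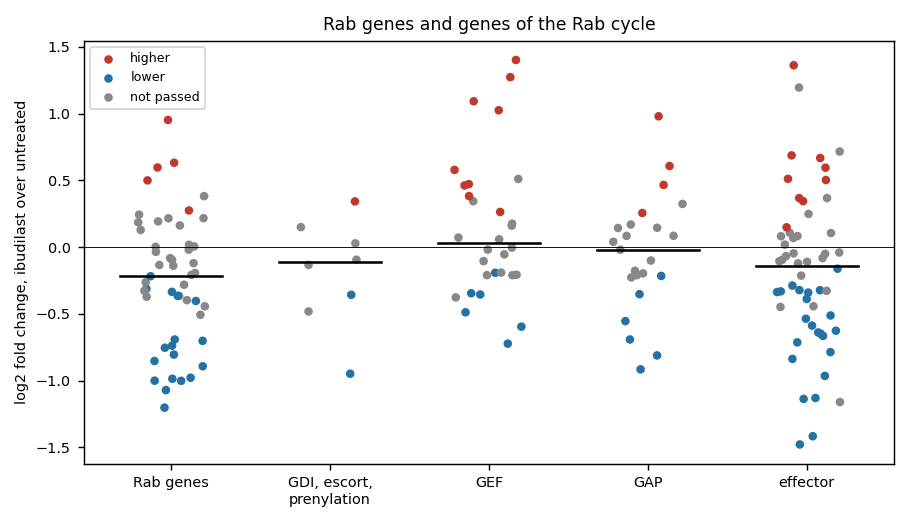
Log2 fold change (ibudilast over untreated) of the tested Rab genes and of 4 lists of genes that act on Rabs; each point is a gene, coloured by its call, and black lines are medians. Medians were −0.22 for Rab genes, −0.11 for inhibitors, escort and prenylation genes, 0.03 for GEFs, −0.02 for GAPs and −0.14 for effectors.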

How the data were processed

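Left hippocampal RNA of 10 rats was sequenced, per the labels with stranded mRNA libraries. The authors deposited 2 tables by gene symbol: expected counts without normalization, and a normalized signal. Tools named in the submitters' processing notes are RSEM 1.2.15, Bowtie2 2.1.0, bcl2fastq and edgeR, with the build rn6. Annotation and strand setting are not given in the sources used here. Expected counts, 12% of them not whole, were rounded. The deposited signal was the rounded count divided by 1 factor per library: 100% of values were whole reads within 0.01, and 99.9% equalled the rounded counts within 0.02.

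Counts were tested by edgeR's quasi-likelihood test (edgeR 4.0.16, limma 3.58.1, R 4.3.3; robust, TMM factors, filterByExpr, no block), adjusted by Benjamini-Hochberg over 12355 genes at 0.05. CPM used TMM-scaled library sizes, and log2 ratios a prior count of 2. Replicates are separate rats; within a group all pairs differed beyond sampling noise (chi-square per gene at least 11.5). Alternatives were other factors, DESeq2 1.42.0, limma-trend on the signal (log2, pseudocount 1), limma-voom, other filters, a replicate block and left-out libraries.

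Named in full were the 10 changed members with the largest absolute log2 fold change, Rab3a, Rab5a, Rab7a, Rab8a, Rab10, Rab11a, Rab27b, members of paralogue pairs that passed, and up to 4 genes per regulator list by smallest p, of which 1 is not reported here. Rab18, Rab12, Rab24, Rab28, Rab34 and Rab36 complete the changed members. The members and lists were chosen with earlier results of these data known. Annotated overlaps come from RefSeq GRCr8 by symbol.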

Additional observations from a re-analysis of the deposited data

Results flagged for a closer look

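A single rat lay far from the other 4 of its group for 11 of 102 combinations of a tested Rab gene and a group, where chance gives about 1 in 20. Untreated replicate 3 was that rat for 4 of them: Rab2a at 79.0 CPM (others 120.4 to 132), Rab7a at 380 CPM (434 to 443), Rab33b at 21.0 CPM (35.7 to 41.5) and Rab13 at 19.4 CPM (11.8 to 13.2). Ibudilast replicate 4 was low for Rab2a, at 48.9 CPM (59.7 to 63.0), and high for Rab43, at 5.32 CPM (3.14 to 3.51). Untreated replicate 4 was low for Rab24, at 48.8 CPM (53.3 to 54.6), and high for Rab28, at 68.2 CPM (61.1 to 61.9). Ibudilast replicate 1 was low for Rab24, at 69.9 CPM (80.4 to 83.8), ibudilast replicate 3 was low for Rab23, at 18.9 CPM (23.9 to 25.9), and untreated replicate 1 was high for Rab35, at 95.0 CPM (86.9 to 88.3). The calls of Rab2a, Rab7a and Rab24 held without any of these rats.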

How the results depend on the processing

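Of the 23 changed Rab genes, 22 kept their direction and their call under all 21 alternatives, and 0 reversed. Rab28 lost its call with upper-quartile factors, with library size alone, in the fit with a replicate block, without the 4 libraries that stood apart, and without untreated replicate 1, untreated replicate 5 or ibudilast replicate 2, at −0.15 to −0.23 (adjusted p up to 0.139). Of the 28 that did not pass, 12 passed under at least 1 alternative. The number of higher Rab genes was 8 with upper-quartile factors and with library size alone and 9 without the 4 libraries, and 5 to 6 with single libraries left out. Lower Rab genes numbered 17 to 22 over all alternatives. Over all tested genes these fits gave 2229 to 3374 lower and 2497 to 3483 higher. Of the inhibitor, escort and prenylation genes, 2 rather than 1 were higher with upper-quartile factors, library size alone or DESeq2, without the 4 libraries and without ibudilast replicate 1 (1 to 2 over left-out libraries), and 1 rather than 2 was lower in the fit with a replicate block. The other lists stayed within 1.5 times their counts. The causes of these shifts were not tested. Library size alone moved the median gene by 0.07 on the log2 scale. Paralogue pairs that passed numbered 8 to 14 with single rats left out. Replicate numbers did not pair the rats: deviations of same-numbered rats correlated at −0.33 to 0.42, and with the replicate block 17 Rab genes were lower and 5 higher. Rab19, Rab20, Rab25, Rab32 and Rab38 had too few reads for small changes to be detectable. edgeR, run on whole reads recovered from the signal (an alternative chosen after seeing the data), called 3004 genes higher and 2813 lower, 18 and 5 Rab genes lower and higher. As 99.9% of these reads equalled the rounded counts, this refit, 1 of the 21 alternatives, could hardly differ from the main fit.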
